A study of Mus musculus with 2 samples.

Results

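The cells described here were 50 of 20322 bone marrow cells that carried transcripts of granulocytes and monocytes although they came through a sort for precursors of natural killer cells. A cell was taken when its summed count over S100a8, S100a9, Lyz2, Elane and Mpo reached 10 UMIs, with no UMI of the B cell gene Cd79a and at most 2 UMIs over the CD3 genes Cd3d, Cd3e and Cd3g. A UMI, or unique molecular identifier, counts 1 captured transcript molecule. The cells were thus chosen by measured transcripts, the UMIs of those 9 genes, whose levels in the cells are given as a description only. The cells were proposed as neutrophils and promyelocytes, while most of them carried monocyte genes, alone or beside primary granule genes.

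The rule took 26 of 7955 kept cells of the Irf4-/- library (0.327%, exact Clopper-Pearson 95% interval 0.214% to 0.479%) and 24 of 12367 kept cells of the WT library (0.194%, 0.124% to 0.289%). The intervals of both shares overlap. All intervals here cover counting error only, and each genotype is 1 library, so differences between libraries have no replicate check and no test was made.

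The Irf4-/- library was made from mice lacking Irf4, a transcription factor of the interferon regulatory factor family, and the WT library from wild-type C57BL/6 mice. In both, the sort asked for CD122, the product of Il2rb, and for the absence of Ncr1, NK1.1, Sca-1, c-kit and lineage markers. The sources used here do not give the deleted part of Irf4, the number of mice pooled, or their age and sex. The droplet chemistry reads the 3' ends of transcripts, and the labels describe its input as nuclei after a sort of cells. Barcodes were kept from 500 genes and 1000 UMIs upward if mitochondrial transcripts took less than 10% of the UMIs. The libraries held 82599767 and 95031071 UMIs in the Irf4-/- and WT samples. The libraries shared 27 cell barcodes, none of them among the 50 cells.

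Granulocytes fill their granules in waves. Promyelocytes make the primary granule proteases, among them neutrophil elastase (Elane), proteinase 3 (Prtn3), cathepsin G (Ctsg) and the peroxidase Mpo, and then stop. Myelocytes make the secondary granule proteins lactoferrin (Ltf), cathelicidin (Camp), neutrophilic granule protein (Ngp) and lipocalin 2 (Lcn2) under the factor C/EBP epsilon, and mature neutrophils follow with late genes such as Retnlg, Mmp8, Mmp9 and the chemokine receptor Cxcr2. Monocytes share an early stage with them in which some primary granule genes are made, and then carry Ccr2, Csf1r, F13a1, Ms4a6c, Klf4, Cx3cr1 and Fn1, with Irf8 as a factor of their lineage.

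Stretches before the annotated starts of 5 granule genes are shown because these genes mark the successive waves into which the cells were sorted below. Elane (chr10:79886062-79886246, plus strand) and Ctsg (chr14:56102575-56102824, minus strand) belong to the primary wave, Ltf (chr9:111019042-111019270, plus strand) and Ngp (chr9:110419558-110419746, plus strand) to the secondary wave, and Retnlg (chr16:48872358-48872607, plus strand) to the late one. The bases are from RefSeq on GRCm38.p6, printed 5′ to 3′ on the gene's strand, and capitals mark matches to TTNNGNAA, a motif bound by C/EBP factors, searched on both strands.
Elane: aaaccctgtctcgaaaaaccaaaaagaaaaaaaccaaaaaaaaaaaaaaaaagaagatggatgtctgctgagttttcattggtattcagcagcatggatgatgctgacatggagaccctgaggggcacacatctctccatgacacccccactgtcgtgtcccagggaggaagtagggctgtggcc
Ctsg: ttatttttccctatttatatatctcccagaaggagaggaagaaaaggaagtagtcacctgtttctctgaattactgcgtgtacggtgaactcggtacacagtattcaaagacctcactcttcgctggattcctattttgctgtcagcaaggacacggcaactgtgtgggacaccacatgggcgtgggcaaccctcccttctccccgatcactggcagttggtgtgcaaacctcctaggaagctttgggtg
Ltf: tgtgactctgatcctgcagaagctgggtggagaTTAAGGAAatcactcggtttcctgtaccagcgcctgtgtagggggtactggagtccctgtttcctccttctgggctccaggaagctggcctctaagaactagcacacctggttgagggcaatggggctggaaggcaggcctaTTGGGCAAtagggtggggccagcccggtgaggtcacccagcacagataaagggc
Ngp: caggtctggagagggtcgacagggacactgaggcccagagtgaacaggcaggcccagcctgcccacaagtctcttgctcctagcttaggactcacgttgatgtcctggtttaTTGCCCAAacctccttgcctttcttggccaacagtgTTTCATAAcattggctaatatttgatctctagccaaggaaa
Retnlg: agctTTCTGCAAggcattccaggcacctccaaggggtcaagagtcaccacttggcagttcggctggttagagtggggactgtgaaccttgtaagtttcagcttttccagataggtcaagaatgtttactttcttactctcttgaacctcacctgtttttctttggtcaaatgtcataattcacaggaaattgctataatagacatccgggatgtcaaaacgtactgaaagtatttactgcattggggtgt
Over the 300-base promoter windows, the C/EBP motif was found in 0 of 4 primary, 3 of 4 secondary, 2 of 3 matched late and 4 of 6 matched monocyte promoters, against 40.7% of all 32851 promoters. The PU.1 motif GAGGAA, searched the same way, was found in 4 of 4 primary, 2 of 4 secondary, 2 of 3 late and 2 of 6 monocyte promoters, against 28.3% of all. With so few promoters these counts describe the windows only.

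In both libraries the 50 cells lacked Il2rb, which the sort asked for, and held few transcripts of T cells and natural killer cells. Most carried Ighm, 1 of the B cell markers. Il2rb had 0 UMIs in the 26 Irf4-/- cells and 0 in the 24 WT cells, while 81.1% of the other kept Irf4-/- cells and 74.4% of the other kept WT cells had a UMI of it. Among 26 and 24 cells a count of 0 allows a share of up to 11.5% and 12.5% of cells with a UMI at 3 counts, and the exact 95% interval reaches 13.2% and 14.2%. Kit, Klrb1c, Ncr1, Cd3e, Cd4, Cd8a, Trac and Trbc2 also had 0 UMIs in both sets of cells. Cd3e is 1 of the genes the rule limited. The limits on Cd79a and CD3 also removed cells with lymphocyte transcripts, such as an Irf4-/- cell with 7 Il2rb UMIs and another with 26 Trbc2 UMIs. The low counts of lymphocyte genes, Il2rb included, were thus partly set by the rule and are a description. Ly6a, which encodes Sca-1, had 5 UMIs in 3 Irf4-/- cells and 0 UMIs in WT cells. Itgam, the CD11b integrin chain of myeloid cells, had 78 UMIs in 16 Irf4-/- cells and 47 UMIs in 15 WT cells. Of the other kept cells only 0.933% and 0.356% had an Itgam UMI. Of the 12 T cell markers, 11 were at 0 in the Irf4-/- cells and 9 at 0 in the WT cells, with summed levels of 3 and 6 UMIs. Of the 12 natural killer and innate lymphoid markers, 9 and 7 were at 0, with 58 and 24 UMIs in all, most of them from Id2 with 33 and 16. The 12 B cell markers had more, 146 UMIs in 21 Irf4-/- cells and 94 UMIs in 20 WT cells, with 8 and 9 markers at 0. Most of these UMIs were from Ighm, with 113 in 19 Irf4-/- cells and 77 in 19 WT cells. As a share of UMIs the B cell list was still lower than in the other kept cells of both libraries.

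Few of the other cells held the defining transcripts, and whether these came from free RNA in the droplets was not tested. Of the other kept cells, 3.09% in the Irf4-/- library and 2.45% in the WT library had any UMI of the 5 defining genes. Sums of 10 to 19 UMIs of these genes were held by 1 selected Irf4-/- and 2 selected WT cells. The rule used these sums, so they are a description. The lowest sums were 17 and 24 UMIs in Irf4-/- cells and 16 and 19 UMIs in WT cells, and just outside, with 5 to 9 UMIs and no bar from the lymphocyte genes, lay 1 Irf4-/- cell and 0 WT cells. The cells were deep. The median was 17029.5 UMIs per Irf4-/- cell (1176 to 48273) and 11628 UMIs per WT cell (2059 to 29713), against 9534 and 7117 UMIs in the other kept cells.

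By their granule genes, few of the cells were neutrophil-like cells past the promyelocyte stage, and most carried monocyte transcripts. Each cell was placed in a range by its UMIs. The primary range asked for at least 10 UMIs over Elane, Mpo, Prtn3 and Ctsg, and the secondary range for at least 10 UMIs over Ltf, Camp, Ngp and Lcn2. The late range asked for at least 5 UMIs over Retnlg, Mmp8, Mmp9 and Cxcr2, and the monocyte gene range for at least 5 UMIs over the 7 monocyte genes named above. These are ranges of a count, not cell types, and each cell went to the first range it reached in the order primary, secondary, late, monocyte gene. Only 9 of 50 cells (18%) fell in the secondary and late ranges, 6 of 26 Irf4-/- cells (23.1%, 8.97% to 43.6%) and 3 of 24 WT cells (12.5%, 2.66% to 32.4%). The other 41 cells (82%) lay in the primary and monocyte gene ranges, 20 Irf4-/- and 21 WT cells.

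**Figure D1:**
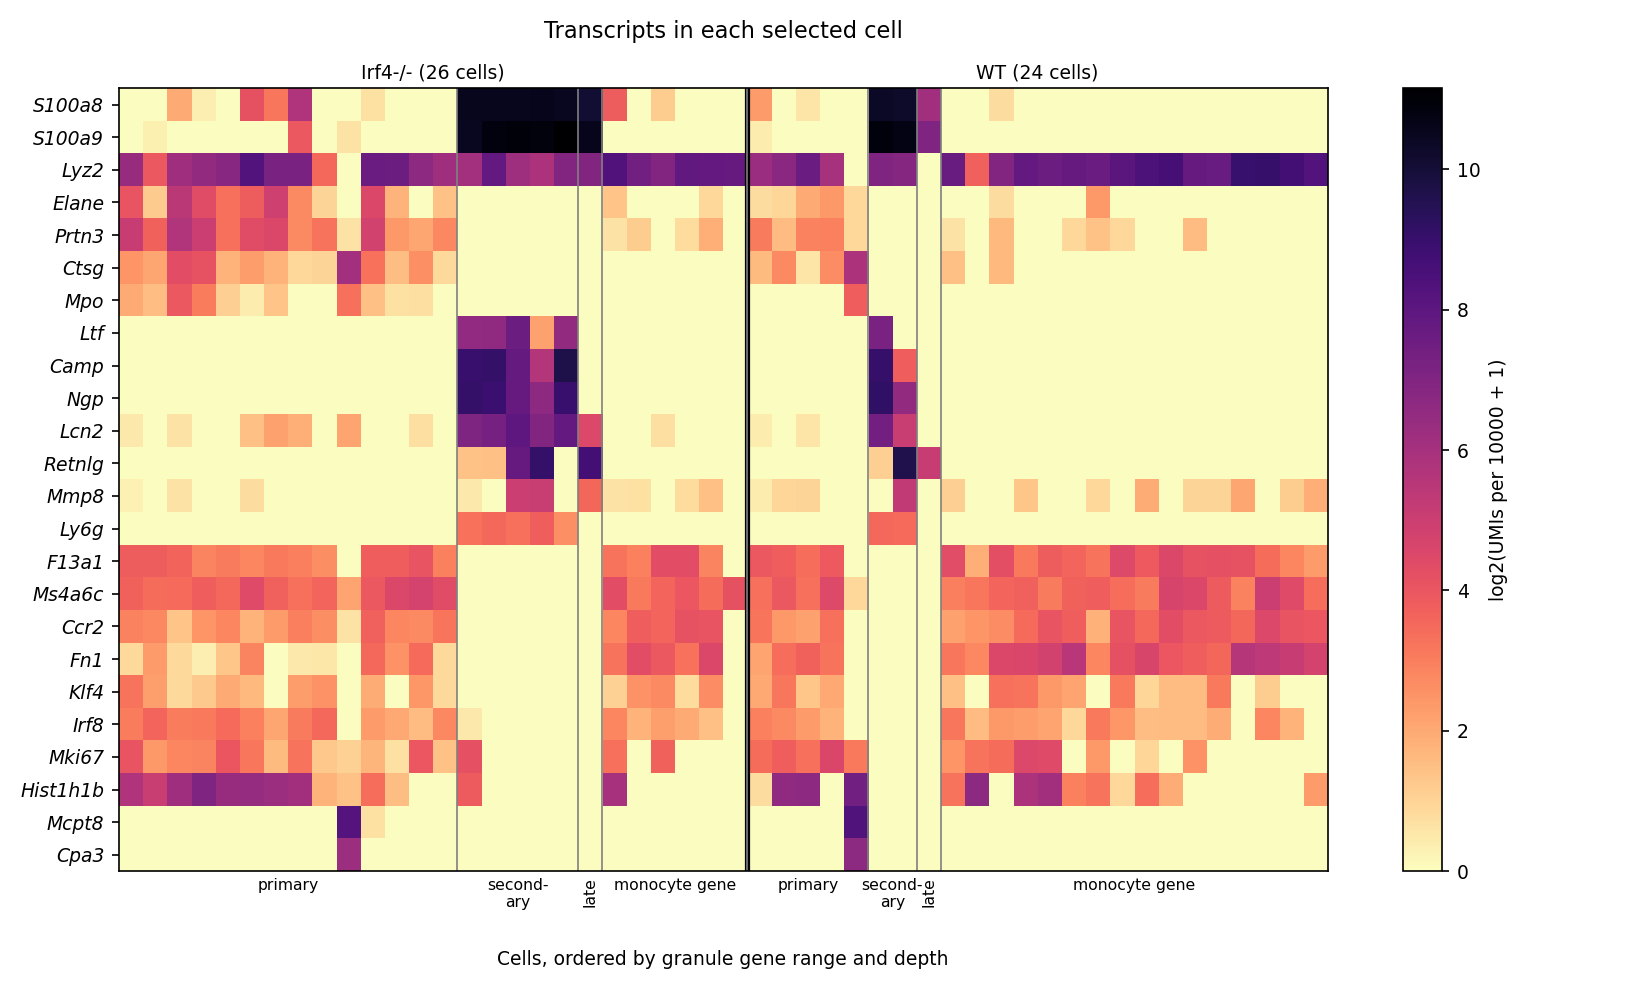
Transcripts in each of the 50 cells, 1 column per cell, as log2 of UMIs per 10000 plus 1, with Irf4-/- cells left of the thick line and WT cells right of it. S100a8 and S100a9 are dark in the 9 secondary and late cells, paler in the WT late cell, while Lyz2, F13a1, Ms4a6c and Ccr2 run through most primary and monocyte gene columns, the 2 cells with Mcpt8 being among the exceptions.

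The libraries differed in how the cells were divided. The primary range held 14 Irf4-/- cells (53.8%, 33.4% to 73.4%) and 5 WT cells (20.8%, 7.13% to 42.2%). The monocyte gene range held 6 Irf4-/- cells (23.1%, 8.97% to 43.6%) and 16 WT cells (66.7%, 44.7% to 84.4%). As shares of the selected cells, the intervals of the monocyte gene range do not overlap and those of the primary range do. These shares depend on each other, since more cells in 1 range lower the shares of the others. The intervals therefore do not show which range differed. The secondary range held 5 Irf4-/- cells (19.2%) and 2 WT cells (8.33%), and the late range 1 cell of each library (3.85% and 4.17%). No cell reached 10 UMIs of both the primary and the secondary list, for which the exact interval reaches 13.2% in Irf4-/- cells and 14.2% in WT cells. As shares of all kept cells, the primary range was 0.176% of Irf4-/- and 0.0404% of WT cells, and the monocyte gene range 0.0754% and 0.129%. On this scale the libraries lay further apart in the primary range, and no intervals are given for these shares.

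**Figure D2:**
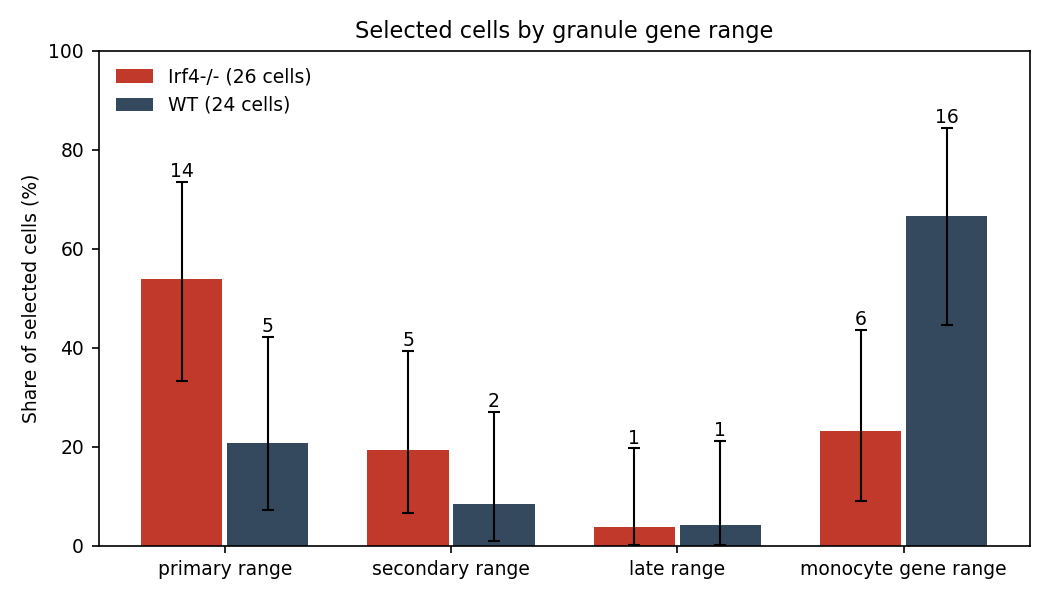
Share of selected cells in each granule gene range, with Irf4-/- bars (26 cells) left of WT bars (24 cells), exact 95% intervals for counting error and the number of cells above each bar. The primary range holds 14 and 5 cells and the monocyte gene range 6 and 16.

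Depth moved with this division. Primary range cells had a median of 24145.5 UMIs in the Irf4-/- library and 20086 UMIs in the WT library, and monocyte gene range cells 14740.5 and 11142.5 UMIs. The 5 cells above 30000 UMIs were all Irf4-/- primary range cells. With every cell thinned to 1000 UMIs, 7.69% of Irf4-/- and 0% of WT cells kept 10 primary granule UMIs. The order of the libraries in the primary range therefore could not be read at that depth. The part of depth in the division was not tested beyond the values given here.

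The 9 secondary and late cells were the neutrophil-like cells of the set. In the 5 Irf4-/- secondary cells Camp, a precursor of the antimicrobial cathelicidin peptide, had 1211, 620, 237, 42 and 650 UMIs, and in the 2 WT secondary cells 449 and 5 UMIs. Retnlg, a late gene, had 4, 2, 227, 468 and 0 UMIs in the same Irf4-/- cells and 1 and 314 UMIs in the WT cells. Thus the cells with the most Camp carried at most 4 Retnlg UMIs, and those with the most Retnlg carried 42 Camp UMIs in the Irf4-/- library and 5 in the WT library. Both libraries held cells at either end of this order. The single late cells had 153 Retnlg UMIs in the Irf4-/- library and 7 in the WT library, with no Ltf, Camp or Ngp.

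S100a8 and S100a9, the paired calcium-binding proteins that fill the neutrophil cytosol, were highest in these same cells. S100a8 had between 399 and 3500 UMIs in the 6 Irf4-/- cells and 14, 489 and 1123 UMIs in the 3 WT cells. S100a9 had between 570 and 3471 UMIs in the Irf4-/- cells and 27, 676 and 1656 UMIs in the WT cells. Per 10000 UMIs, S100a8 lay between 1073 and 1495 in all 6 Irf4-/- cells and at 68.0, 1220 and 1301 in the WT cells. The low value belongs to the WT late cell, which had 2059 UMIs, 0 of Lyz2 and 41 UMIs of the 5 defining genes in all.

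The primary granule genes Elane, Mpo, Prtn3 and Ctsg had 0 UMIs in all 9 cells of both libraries, as did Ccr2, F13a1, Ms4a6c, Klf4, Cx3cr1 and Fn1. Csf1r, which encodes the receptor of macrophage colony-stimulating factor, had 0 UMIs in the Irf4-/- cells and 1 UMI in the WT cells. Ly6g, the surface antigen used to stain mouse neutrophils, had 21, 12, 10, 11 and 4 UMIs in the Irf4-/- secondary cells and 9 and 4 UMIs in the WT ones. No other kept cell of either library, selected or not, had a Ly6g UMI. Cebpe, which encodes C/EBP epsilon, had 26, 10, 3, 2 and 4 UMIs in the Irf4-/- secondary cells and 3 and 0 UMIs in the WT ones. The deepest Irf4-/- secondary cell, with 24105 UMIs and the most Camp, was also the only one of the 9 with transcripts of the division genes Mki67 (42 UMIs) and Top2a (33 UMIs).

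Among the rest of the neutrophil genes, Chil3, a chitinase-like secreted protein, had 188, 83, 15, 0 and 31 UMIs in the Irf4-/- secondary cells and 52 and 0 UMIs in the WT ones. Olfm4, a glycoprotein kept by a subset of mouse neutrophils, had 12 UMIs in the Retnlg-rich WT secondary cell and 0 UMIs in every other selected cell of both libraries. Stfa2l1, a stefin of mature neutrophils, had 38 UMIs in the Irf4-/- late cell and 3 in the Retnlg-rich Irf4-/- secondary cell, and 0 UMIs in the WT cells. Mitochondrial transcripts were scarce in the 9 cells, between 0.0816% and 0.582% of UMIs in Irf4-/- and between 0.15% and 0.706% in WT cells. In the primary and monocyte gene ranges without the Mcpt8 cells described below they were between 1.25% and 3.62% in Irf4-/- and between 1.51% and 3.31% in WT cells, with no overlap.

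**Figure D3:**
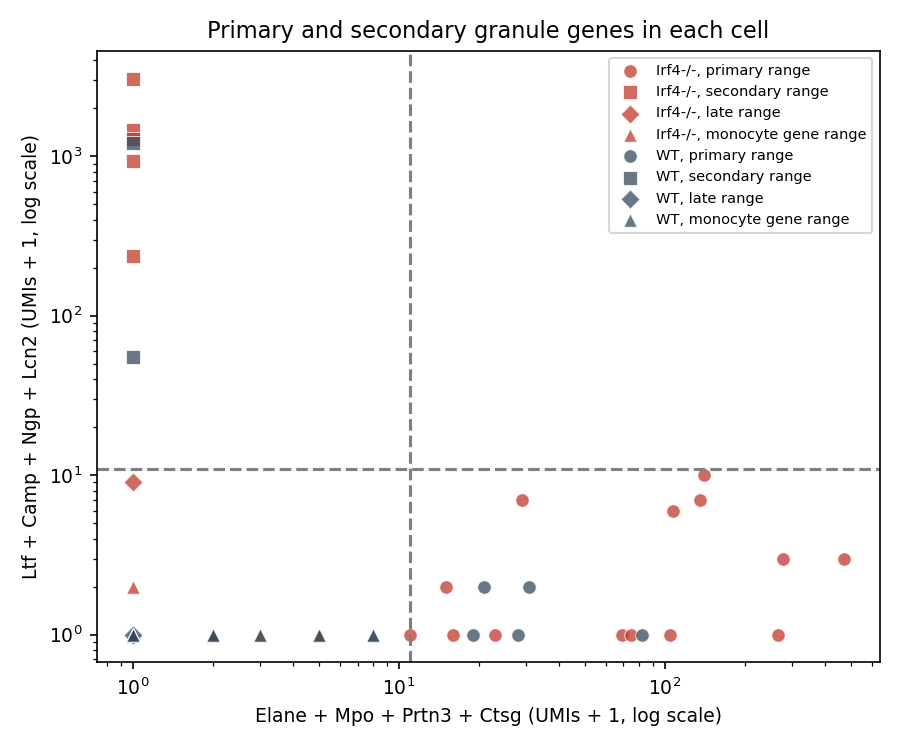
Summed UMIs of the primary granule genes Elane, Mpo, Prtn3 and Ctsg (horizontal) and of the secondary granule genes Ltf, Camp, Ngp and Lcn2 (vertical) in each cell, plus 1, on log axes, in red for Irf4-/- and blue for WT. Dashed lines mark the limits of 10 UMIs, no cell lies past both, and several cells lie on top of each other near the origin.

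Cells of the primary range carried monocyte genes beside the primary granule genes. Leaving 1 cell of each library aside, the 13 Irf4-/- and 4 WT cells all carried Lyz2, the lysozyme of monocytes and neutrophils, with 22 to 871 UMIs in the Irf4-/- cells and 104 to 387 UMIs in the WT cells. They all carried Ccr2, the receptor with which monocytes leave the marrow, with 6 to 31 UMIs in the Irf4-/- and 7 to 24 UMIs in the WT cells. F13a1, a clotting factor subunit of monocytes, had 8 to 62 UMIs in the Irf4-/- and 19 to 43 UMIs in the WT cells. Ms4a6c, a membrane protein of monocytes, had 21 to 58 UMIs in the Irf4-/- and 18 to 35 UMIs in the WT cells. These ranges overlap. Kit, found on early progenitors, had 0 UMIs in all of them, and S100a9 was seen in 2 Irf4-/- cells (1 and 33 UMIs) and 1 WT cell (1 UMI).

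The primary granule genes themselves varied widely among these cells. Elane had between 0 and 158 UMIs in the 13 Irf4-/- cells, with a median of 31, and 2, 2, 6 and 7 UMIs in the 4 WT cells. Prtn3 had between 5 and 189 UMIs in the Irf4-/- cells, with a median of 44, and 22, 4, 13 and 11 UMIs in the WT cells. Mpo was present in 10 of the 13 Irf4-/- cells, with up to 54 UMIs, and in none of the 4 WT cells. Most Irf4-/- cells lay above the WT cells in Elane and Prtn3 while others overlapped them, and 1 had no Elane UMI. Summed over the 4 genes and set per 10000 UMIs, the Irf4-/- cells ran from 8.24 to 125 with a median of 22.0 and the WT cells from 8.48 to 16.4 with a median of 10.0. Ms4a3, a membrane protein of granulocyte and monocyte progenitors, had UMIs in 5 of the Irf4-/- cells, 26 in all, and 0 in the WT cells. The other promyelocyte genes summed to 24.9 to 56.1 per 10000 in the Irf4-/- cells and 14.9 to 33.3 in the WT cells, and 10 of the 12 had a UMI in the Irf4-/- cells. Secondary granule transcripts were near absent, with Lcn2 at up to 9 UMIs in the Irf4-/- cells and up to 1 UMI in the WT cells.

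One primary range cell of each library stood apart and carried basophil and mast cell transcripts. Mcpt8, the basophil protease, had 534 UMIs in the Irf4-/- cell and 384 UMIs in the WT cell. Prss34, another protease of these cells, had 606 and 478 UMIs, the carboxypeptidase Cpa3 136 and 119, and Fcer1a, a chain of the IgE receptor, 50 and 16 in the Irf4-/- and WT cells. Their primary granule count came from Ctsg, with 118 and 64 UMIs, and Mpo, with 16 and 15 UMIs, while Lyz2 had 0 UMIs in both. Mcpt8 (chr14:56082166-56085273, minus strand) and Ctsg (chr14:56099881-56102574, minus strand) lie in 1 protease cluster, as Prtn3 (chr10:79874476-79883174) and Elane (chr10:79886247-79888215) lie side by side on the plus strand, in GENCODE M21 positions on mm10. The rule took these cells through Mpo alone, and they are left out of the gene comparisons where this is said.

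Monocyte gene range cells had few primary granule UMIs by definition, and other genes differed from the primary range too. Fn1 had 1385 CPM in Irf4-/- and 2117 CPM in WT cells, against 245 and 685 CPM in the primary range with its Mcpt8 cells. S100a4 had 2667 and 2722 CPM against 1009 and 1280 CPM, while Ms4a6c was close, with 1269 and 1266 CPM against 1292 and 1129 CPM. In the monocyte gene range, Lyz2 had between 25 and 578 UMIs in the 6 Irf4-/- cells and between 19 and 472 UMIs in the 16 WT cells. Per 10000 UMIs the 7 monocyte genes summed to between 42.5 and 65.7 in the Irf4-/- cells, with a median of 55.5, and to between 25.4 and 113 in the WT cells, with a median of 69.2. S100a9 and Mpo had 0 UMIs in all 22 of these cells. One Irf4-/- cell here, the shallowest of the set at 1176 UMIs, held 25 Lyz2 UMIs beside 19 of Cd74 and 16 of H2-Aa, genes of antigen presentation, and 4 of the macrophage complement gene C1qc. Of H2-Aa no other selected cell of either library had a UMI.

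The rule's lymphocyte limits removed cells that bear on its label. Of 30 kept cells with 10 defining UMIs in each library, 4 Irf4-/- and 6 WT cells were removed. By far the richest in primary granule transcripts was an Irf4-/- cell with 8 Cd79a UMIs and 61752 UMIs in all. It held 1120 UMIs of Elane, 719 of Mpo, 1053 of Prtn3 and 544 of Ctsg, with 7 UMIs of Kit, 20 of Lyz2 and 0 of Fn1. The highest counts of these 4 genes in any selected cell of either library were 158, 54, 189 and 118 UMIs, and none had a Kit UMI. One removed cell per library, with 11 and 5 CD3 UMIs, lay in the late range with 4 and 32 Retnlg UMIs. Another WT cell, with 23 CD3 UMIs, held 439 Mcpt8 UMIs. No doublets were called or removed, and whether these removed cells are doublets was not tested.

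Taken over all 50 cells, primary and secondary granule genes were among the genes with the highest ratios in the Irf4-/- cells, and Fn1, a monocyte gene, had the lowest. UMIs were summed over the cells of a library and scaled to a total of 1000000 (CPM). Of 2319 genes with at least 50 UMIs over both libraries, 37 (1.6%) had a log2 ratio of Irf4-/- over WT of 1 or more and 53 (2.29%) of -1 or less, and the median gene had -0.04. All 4 secondary granule genes and 3 of 4 primary granule genes were at 1 or more, while of the late granule genes 0 of 3 with enough UMIs were, with a median of 0.29. The genes named next were ranked among those with a UMI in at least 5 cells of the library with the higher level. Elane was the highest at 3.63 (exact conditional 95% interval 3.04 to 4.29), from 515 UMIs in 14 Irf4-/- cells and 24 UMIs in 7 WT cells. Wfdc21 (2.95), a small secreted protein of neutrophils, Prtn3 (2.84), Cebpe (2.43), Mpo (2.33), Lcn2 (2.01), Camp (1.81), S100a8 (1.79), Fcnb (1.74), a ficolin of immature myeloid cells, and the histone gene Hist1h2br (1.60) followed.

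Elane, Mpo, S100a8 and Lyz2 also served to choose the cells. The values of secondary granule genes rest on very few cells. Of the S100a8 UMIs, 35.6% in the Irf4-/- library and 68.5% in the WT library came from 1 cell. Without the cell of most UMIs in each library, and with the library totals kept, the log2 ratio of Camp was 7.48, that of Lcn2 4.89 and that of S100a8 2.82. Of the 454 WT UMIs of Camp, 449 were in 1 cell and 5 elsewhere, and of the 157 of Lcn2, 142 were in 1 cell. The Camp and Lcn2 ratios thus rest on very few WT UMIs and do not show a larger difference. The WT cell in question carried 1 CD3 UMI, as did the WT late cell, and with no CD3 UMI allowed S100a8 had 3.36. Wfdc21 had 5 UMIs in Irf4-/- cells and 0 in WT cells outside the secondary and late ranges and the Mcpt8 cells, so nearly all of its UMIs came from the secondary and late cells.

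Lower in the Irf4-/- cells, Fn1, the matrix protein fibronectin made by monocytes and macrophages, was the extreme at -2.00 (-2.24 to -1.75), from 198 UMIs in 17 Irf4-/- cells and 456 UMIs in 20 WT cells. Stxbp6 (-1.75), the lectin receptor Clec4a3 (-1.72), the phosphatase gene Ssh2 (-1.59), the chemokines Ccl9 (-1.55) and Ccl6 (-1.54), Pid1 (-1.54), the histone methyltransferase gene Kmt2a (-1.42), Rasa3 (-1.38) and the phospholipase gene Plcg2 (-1.36) followed. Of the 7 monocyte genes 1, Fn1, was at -1 or less, and the list had a median of -0.66.

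**Figure D4:**
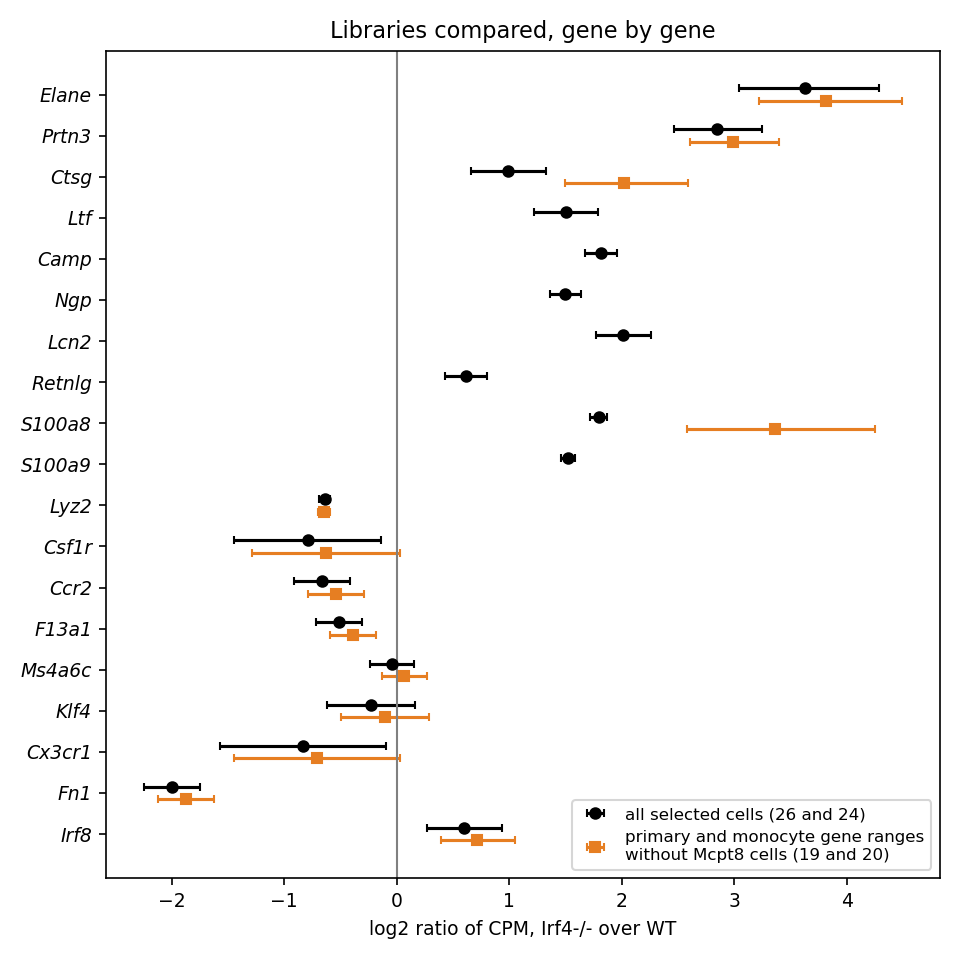
Log2 ratio of CPM, Irf4-/- over WT, with exact 95% intervals for counting error, for all selected cells (black) and for the primary and monocyte gene ranges without the Mcpt8 cells (orange, shown where a gene had at least 50 UMIs and no library at 0). Elane and Prtn3 lie to the right and Fn1 to the left in both sets.

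Among the cells that carried monocyte genes, Elane, Prtn3, Mpo and Fn1 kept the direction of their ratios. The primary and monocyte gene ranges together held 447919 of 514533 Irf4-/- UMIs and 282521 of 297224 WT UMIs, Mcpt8 cells included. Most of each sum was thus shared with the whole set, so this was no separate check. The secondary granule genes could not be compared there. Ltf, Camp and Ngp had 0 UMIs in both libraries, and Lcn2, with 26 Irf4-/- and 2 WT UMIs, was below the minimum. In the primary and monocyte gene ranges without the Mcpt8 cells, 19 Irf4-/- and 20 WT cells, 34 of 2072 genes (1.64%) had a log2 ratio of 1 or more and 45 (2.17%) of -1 or less. Elane had 1198 CPM in the summed Irf4-/- and 84.9 CPM in the summed WT cells, a log2 ratio of 3.82 (3.22 to 4.49). Of its Irf4-/- UMIs, 30.7% were in 1 cell. Prtn3 had 1758 and 222 CPM (2.99, 2.61 to 3.39) and Ctsg 509 and 126 CPM (2.02, 1.49 to 2.59). Mpo had 115 UMIs in 10 Irf4-/- cells and 0 UMIs in the WT cells, which at a floor of 3 UMIs in the WT library is a log2 ratio of at least 4.59. S100a8 had 228 UMIs in 8 Irf4-/- cells and 14 UMIs in 3 WT cells (3.36, 2.58 to 4.25), of which 120 were in 1 Irf4-/- cell.

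Fn1 had 460 CPM in the Irf4-/- cells and 1684 CPM in the WT cells, a log2 ratio of -1.87 (-2.12 to -1.63). Ccl6 had -1.87, Plbd1, a phospholipase B-like protein, -1.65, the interferon-induced membrane protein gene Ifitm6 -1.45 and Ccl9 -1.43. Not all monocyte genes followed. Ms4a6c had 1328 and 1267 CPM (0.07, -0.13 to 0.27) and Klf4 319 and 343 CPM (-0.11, -0.50 to 0.29), with intervals that include 0. F13a1 (-0.39) and Ccr2 (-0.54) were lower in the summed Irf4-/- cells, with intervals below 0. These intervals cover counting error only, not the spread between cells, so they do not separate genes that differ from genes that do not. In single cells the levels of F13a1 and Ccr2 overlapped widely between the libraries.

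Within the primary range, where 13 Irf4-/- and 4 WT cells could be compared, the background was 3.6% of 1335 genes at 1 or more and 2.25% at -1 or less. The range was set with the primary granule genes, so their levels in it are descriptions. There Elane had 1449 CPM in Irf4-/- and 194 CPM in WT cells (2.90), Prtn3 2123 and 571 CPM (1.89), and Ctsg 621 and 320 CPM (0.96). Srgn, the proteoglycan core that packs granule proteases, had 84 UMIs in Irf4-/- and 3 UMIs in WT cells (2.80, 1.20 to 5.10). Fn1 had 258 and 777 CPM (-1.59). Within the monocyte gene range, 6 Irf4-/- and 16 WT cells, with 1.33% and 2.12% of 753 genes past 1 and -1, Lyz2 had -0.21, Fn1 -0.61 and Ccl6 -1.01. Chil3 had 4272 CPM in Irf4-/- and 1336 CPM in WT cells there (1.68), present in 5 of 6 and 9 of 16 cells.

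**Figure D5:**
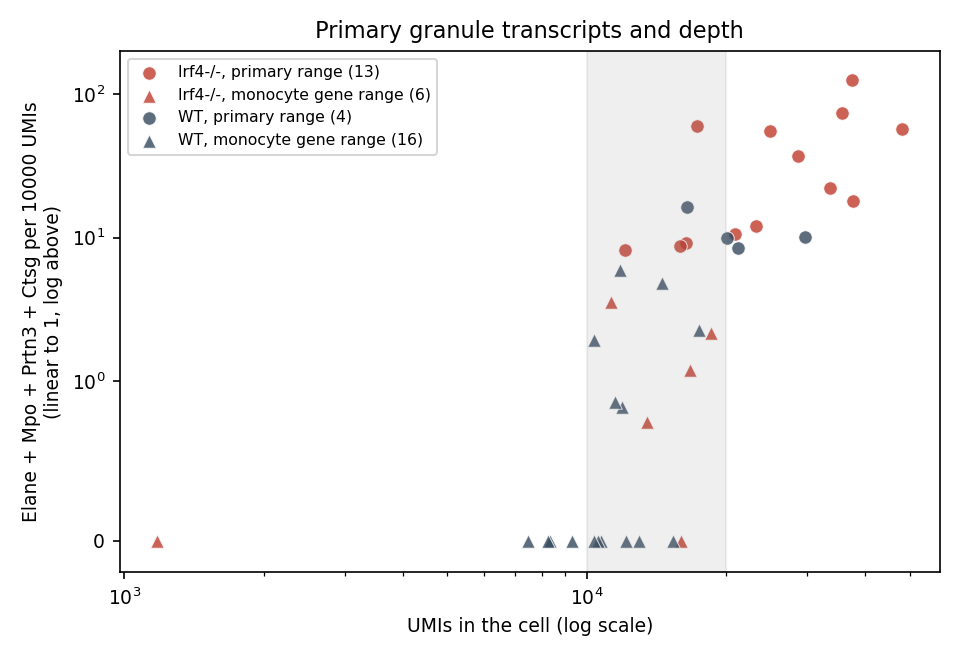
UMIs per cell (log axis) and summed primary granule UMIs per 10000 (linear to 1, log above) in the primary and monocyte gene ranges without the Mcpt8 cells, in red for Irf4-/- and blue for WT. Each point is 1 cell, and the grey band marks 10000 to 20000 UMIs, where 9 Irf4-/- and 13 WT cells lie, and the highest values belong to Irf4-/- cells to its right.

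Depth went with these levels cell by cell. Across the 19 Irf4-/- and 20 WT cells, Spearman's rho between the primary granule level per 10000 UMIs and depth was 0.79 and 0.71, with the cell cycle list 0.54 and 0.45, with Irf8 0.60 and 0.51, with S100a4 -0.60 and -0.66 and with Fn1 -0.39 and -0.60. The points of each library share that library, and levels and depth share their UMIs, so these are descriptions. Among cells of 10000 to 20000 UMIs only, 9 Irf4-/- and 13 WT, the 4 primary granule genes summed to 1117 CPM in Irf4-/- and 294 CPM in WT cells, against 3732 and 432 CPM at all depths. One Irf4-/- cell held 104 of the 154 Irf4-/- UMIs and 1 WT cell 27 of the 49 WT UMIs, and the median cell had 3.54 and 0.84 per 10000. Without that Irf4-/- cell the sum was 415 CPM in Irf4-/- cells. The log2 ratio in this window was 2.19 for Elane, 2.07 for Prtn3 and 1.12 for Ctsg, and without that Irf4-/- cell 0.09, 0.77 and 0.14. Without the highest cell of each library it was 1.05, 1.69 and 1.31. Without that Irf4-/- cell the 4 genes together held 50 Irf4-/- and 49 WT UMIs, and without the highest cell of each library 50 and 22. Each gene then had fewer than the 50 UMIs asked for elsewhere, as Ctsg had in the whole window. These ratios rest on too few UMIs to compare the libraries. Fn1 had -0.61 in this window, -0.60 without that Irf4-/- cell and -0.68 without the highest cell of each library. The 7 monocyte genes summed to 5410 and 6002 CPM, against 3928 and 5823 CPM at all depths.

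Among the other promyelocyte genes in those 19 and 20 cells, 5 of 12 had at least 50 UMIs, of which 2, Fcnb (2.33) and Srgn (1.10), were at 1 or more and 0 at -1 or less. Plac8 had 0.49, Calr, a chaperone of the secretory pathway, 0.77 and Hsp90b1 0.18. The list had a median of 0.77, against 0.02 over all genes. Of the other myelocyte genes 6 of 14 had enough UMIs and none passed 1 or -1, with Chil3 at 0.57, Hp, which encodes haptoglobin, at -0.00 and Anxa1 at 0.18. Of the other mature neutrophil genes 7 of 20 did, with Slpi, a protease inhibitor, at 1.15 and Ccl6 at -1.87 past the limits.

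The oxidase that makes superoxide differed little. Of its 6 genes none passed 1 or -1 and all 6 lay below 0, from -0.72 for Cybb, its catalytic chain, to -0.02 for Rac2, with a median of -0.23. Interferon response genes gave 6 of 20 with enough UMIs, 1 of them, Slfn1 (-1.11), at -1 or less, and a median of -0.46. Within the primary range without the Mcpt8 cells the direction was the other way, with 3248 CPM in Irf4-/- and 2275 CPM in WT cells, 2 of 4 genes at 1 or more, Bst2 (1.56) and Ifi27l2a (1.35), and a median of 0.81. Over both ranges Ifitm3 had -0.47 and Ifi27l2a -0.35. Of the S100 and annexin genes, S100a4 had 1349 CPM in Irf4-/- and 2312 CPM in WT cells (-0.78), S100a6 -0.40 and S100a10 0.05.

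Of the cell cycle genes 19 of 20 had enough UMIs, with 2 at 1 or more, the replication helicase subunit Mcm5 (1.44) and Hist1h2ap (1.29), and 0 at -1 or less. The list summed to 15746 CPM in Irf4-/- and 11765 CPM in WT cells. Within the primary range without the Mcpt8 cells it summed to 16767 CPM in Irf4-/- and 17213 CPM in WT cells, with 1 gene at 1 or more, 2 at -1 or less and a median of -0.07. At 10000 to 20000 UMIs the sums were 11278 and 11134 CPM. Mki67, a marker of dividing cells, was present in all 13 Irf4-/- and all 4 WT primary range cells, and in 2 of 6 and 8 of 16 monocyte gene range cells. Mki67 itself had a log2 ratio of -0.13 (-0.38 to 0.13) over both ranges.

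Among myeloid transcription factors, Irf8, which favours the monocyte over the neutrophil branch, had 649 CPM in the 19 Irf4-/- cells and 395 CPM in the 20 WT cells (0.72, 0.39 to 1.05). It had 0.51 within the primary range, 0.02 within the monocyte gene range and -0.02 at 10000 to 20000 UMIs. In the 9 secondary and late cells Irf8 had 1 UMI in Irf4-/- and 0 UMIs in WT cells. Spi1, which encodes PU.1, had -0.18 and Cebpb 0.49. Irf4 itself had 5 UMIs in 3 Irf4-/- cells and 3 UMIs in 3 WT cells, too few to compare, and since reads from outside a deleted part would be counted, these do not check the genotype.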

How the data were processed

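The deposited files held UMI counts per gene and cell barcode, made with Cell Ranger 6.1.1 per the file headers and aligned to mm10 per the submitters' processing notes, as whole numbers with no normalization. Further settings are not given in the sources used here. Each genotype was 1 library, so no test was made. UMIs of the selected cells were summed per library, scaled to CPM, and compared as a log2 ratio of Irf4-/- over WT. A 95% interval conditional on the summed count of both libraries was given for each ratio (exact binomial). A gene at 0 in 1 library was set to 3 UMIs there and its ratio written as a bound. Genes needed 50 UMIs over both libraries. Levels come from 3' ends and are compared between cells, never between genes.

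The selected cells, their ranges and the gene lists were chosen with earlier results of these data known. Named genes were those of the 5 defining genes and the range lists, the gate genes, and up to 4 genes per other list by UMIs. The 10 highest and 10 lowest ratios were named too, as were genes among the 15 highest by CPM over the other kept cells. Both rankings left out ribosomal, mitochondrial, receptor-segment and unnamed genes. Ly6g, Cebpe, Olfm4, Stfa2l1, Chil3, Slfn1, Plbd1, Mcm5, Wfdc21, the Mcpt8 cells and the removed cells were singled out after their values were seen. Of 32285 feature IDs, 32158 were found in GENCODE M21. No doublet caller was run. The ratio and its interval were tested on simulated Poisson counts with no spread between cells. That checks the calculation, not whether the interval covers the spread between cells in these data. Python 3.11.15, numpy 2.4.6, scipy 1.17.1, pandas 2.3.3 and matplotlib 3.10.9 were used. Some genes are not reported here.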

Additional observations from a re-analysis of the deposited data

How the results depend on the processing

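No paired analysis was possible because each genotype is 1 library. Of 1137 values of named genes under alternatives, 843 stayed within the interval of the main value, 290 moved beyond it and 4 reversed. A value counted as reversed only where the main log2 ratio was past 1 or -1 with an interval that excluded 0. Other changes of sign are among the 843 and 290 and were not counted apart. Clec4a3 had a log2 ratio of 0.059 in the granule gene ranges only, and Apoe 1.69 among primary and monocyte gene range cells of 10000 to 20000 UMIs, 1.75 without the Irf4-/- cell of most primary granule UMIs there and 1.77 without the highest cell of each library. Of 116 other values, 98 held and 18 moved. With cells thinned to 1000 UMIs, the primary range held 7.69% of Irf4-/- and 0% of WT cells, and 30.8% of Irf4-/- and 37.5% of WT cells fell in no range. With limits of 5 UMIs, 15.4% of Irf4-/- cells held both primary and secondary granule genes and 0% were left in the late range. With no CD3 UMI allowed, 0% of WT cells lay in the late range. Genes at a log2 ratio of 1 or more numbered 8 at 10000 to 20000 UMIs (8 without that Irf4-/- cell, 10 without the highest of each library), 23 with ranges reweighted and 184 with a minimum of 20 UMIs. Those at -1 or less numbered 18 at 10000 to 20000 UMIs (16 and 15 likewise), 33 in the granule gene ranges only, 94 with each cell weighted equally and 255 with a minimum of 20 UMIs. The smaller minimum and the smaller sets change how many genes could be counted; beyond that the cause was not tested. A planned comparison within ranges of at least 10 cells per library could not be made, and a minimum of 5, lowered to 4 by leaving out the Mcpt8 cell, was chosen after seeing the data, as were the sets without secondary, late or Mcpt8 cells and the depth window. With 26 and 24 cells, differences in shares within the intervals given could not be told from counting error.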

Other observations

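Genes with a UMI in at least 25% of the selected cells were ranked by their CPM over that of the other kept cells. The genes named here were among the 15 highest and were used neither to choose the cells nor to set the ranges. They were picked because they differ, so their values are a description only. The highest was Cd177, 1 of the other myelocyte genes, with UMIs in 57.7% of the Irf4-/- and 54.2% of the WT selected cells. It had 105 and 35 UMIs there against 3 and 0 UMIs in all other kept cells. In the primary and monocyte gene ranges it had 13 UMIs in 9 Irf4-/- cells and 20 UMIs in 11 WT cells. Tgfbi, a matrix protein of monocytes and macrophages, had UMIs in 76.9% of the Irf4-/- and 83.3% of the WT selected cells, and 99 and 82 UMIs there against 12 and 15 UMIs in all other kept cells. Gpr141, an orphan receptor, had UMIs in 73.1% and 83.3%, and Ifitm6 in 84.6% and 87.5% of the selected Irf4-/- and WT cells. Trem2, a lipid-sensing receptor of macrophages, had 24 UMIs in the Irf4-/- and 17 UMIs in the WT selected cells, against 2 and 2 UMIs in all others.

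In the primary and monocyte gene ranges without the Mcpt8 cells, 5 of 10 adhesion and migration genes had at least 50 UMIs and none passed a log2 ratio of 1 or -1. Itgb2, the shared chain of leukocyte integrins, had 97.7 CPM in Irf4-/- and 177 CPM in WT cells (-0.86, -1.49 to -0.23). Selplg, which encodes a selectin ligand, was higher at 0.57 (0.15 to 1.01). Of the growth factor and cytokine receptors 4 of 16 had enough UMIs and none passed, with Il6ra at -0.79 (-1.35 to -0.24) and Csf2ra at 0.40 (-0.08 to 0.88). Of 10 macrophage genes 1 had enough UMIs, the lipoprotein gene Apoe, with 30 UMIs in 5 Irf4-/- cells and 47 UMIs in 13 WT cells (-1.31). Of the 30 Irf4-/- UMIs 21 were in 1 cell, and among cells of 10000 to 20000 UMIs the ratio was 1.69. Among interferon regulatory factors other than Irf8, Irf2 had 0.13 and Irf5 -0.57, both with intervals that include 0.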
